A study of Mus musculus with 12 samples.

Results

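A set of 7 long noncoding RNA genes that carry small nucleolar RNAs (snoRNAs) in their introns was examined for R-loops: Gas5, Snhg1, Snhg3, Snhg5, Snhg6, Snhg8 and Snhg12. They were taken by name with earlier results of these data known, 7 of 49943 genes annotated on chromosomes 1 to 19, X and Y. Every S9.6 interval that overlapped a gene body with 1 kb on both sides was assigned to that gene. An R-loop is an RNA-DNA hybrid with a displaced DNA strand, and S9.6 is an antibody against such hybrids. The series holds 12 libraries, 2 each of S9.6 immunoprecipitate, RNase H1-treated immunoprecipitate and input, from HEPA1-6 cells and from mouse liver. HEPA1-6 is a mouse hepatoma line, the liver came from C57/Bl6 mice, and all libraries are labelled wild type, untreated and hepatocyte. The labels give neither the age nor the number of the mice. The analysis used 1 deposited list of intervals per source, called on merged immunoprecipitate against input, so no value below has a replicate error and no test between sources was possible. The single libraries and the RNase H1-treated controls were not analysed here, and the sequencing depth behind the lists is unknown.

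A snoRNA host gene is transcribed by RNA polymerase II, and its snoRNAs are trimmed from introns after splicing. C/D box snoRNAs (symbols beginning with Snord) guide ribose methylation of ribosomal RNA, and H/ACA box snoRNAs (Snora) guide pseudouridylation. The spliced host RNA of noncoding hosts is often degraded by nonsense-mediated decay, and several hosts belong to the terminal oligopyrimidine class, whose transcripts open with a cytosine and a run of pyrimidines. Gas5, named for growth arrest-specific transcript accumulation, is the best known of them. In hepatocytes as in other cells these genes serve ribosome production.

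The HEPA1-6 list held 28717 intervals (median width 1091 bp, 56.4 Mb in all) and the second list 14908 (median width 881 bp, 21.6 Mb). The authors' score is a whole number of unstated scale, from 10 to 29098 and from 10 to 15543, so it was used only as a percentile within its own list. The second list is called liver-labelled, because interval lists alone cannot check its label. An interval was held there by 6 of 16 hepatocyte markers (37.5%: Alb, Apoa2, Apoe, Hnf4a, Hpx and Trf) and by 11 of 16 cell cycle genes (68.8%). In HEPA1-6 these counts were 7 (43.8%) and 15 (93.8%). Over all protein-coding genes the share was 29.7% in the liver-labelled list and 42.0% in HEPA1-6. The hepatocyte markers were thus near the background in HEPA1-6, and the cell cycle genes were above it in both lists. Score percentiles were mixed among genes with an interval in both lists. Of 6 hepatocyte markers, 3 (Apoa2, Hnf4a and Hpx) were higher in the liver-labelled list and 3 (Alb, Apoe and Trf) were lower. Of 11 cell cycle genes, 0 were higher. Over all 7606 genes with an interval in both lists, 85.1% were lower in the liver-labelled list. An interval is not a measure of expression, and what these counts mean for the members was not tested.

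Promoter sequences are given first, because several of these genes are known for particular start sites. RefSeq (GRCm38.p6) windows matched 6 of 7 members, the exception being Snhg6, and gave 7 start sites because Gas5 has an upstream and a downstream start. Each line below runs 5′ to 3′ from 50 bases before the start site to its end 49 bases after it. Capitals mark TATA placed 20 to 40 bases before the start, and a pyrimidine run of at least 4 bases that opens with C within 2 bases of the start.
Gas5 upstream start, chr1:161034551-161034650, plus strand: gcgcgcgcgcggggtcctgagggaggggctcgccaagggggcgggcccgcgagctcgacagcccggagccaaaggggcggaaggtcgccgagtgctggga
Gas5 downstream start, chr1:161035116-161035215, plus strand: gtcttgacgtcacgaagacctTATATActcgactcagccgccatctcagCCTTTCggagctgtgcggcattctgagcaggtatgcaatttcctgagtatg
Snhg1, chr19:8723437-8723536, plus strand: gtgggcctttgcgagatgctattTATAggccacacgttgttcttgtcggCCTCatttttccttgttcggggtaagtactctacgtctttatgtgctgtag
Snhg3, chr4:132353637-132353736, minus strand: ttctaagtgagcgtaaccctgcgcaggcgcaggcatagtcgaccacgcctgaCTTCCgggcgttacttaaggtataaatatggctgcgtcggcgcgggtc
Snhg5, chr9:88522848-88522947, minus strand: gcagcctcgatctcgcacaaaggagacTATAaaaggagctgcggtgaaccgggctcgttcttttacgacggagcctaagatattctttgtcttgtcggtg
Snhg8, chr3:123508287-123508386, minus strand: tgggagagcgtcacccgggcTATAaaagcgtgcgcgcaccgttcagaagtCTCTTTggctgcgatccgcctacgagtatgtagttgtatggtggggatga
Snhg12, chr4:132308628-132308727, plus strand: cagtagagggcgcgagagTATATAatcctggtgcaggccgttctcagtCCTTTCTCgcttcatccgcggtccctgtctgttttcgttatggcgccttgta

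TATA, which reads the same on both strands, stood in that position in 5 of the 7 windows and in 5.81% of 32851 promoter windows of all genes. The pyrimidine run was present in 5 of the 7 windows and in 14.3% of all windows, and both features together in 4 of 7 and 0.831%. The run was 6 bases at the Gas5 downstream start and at Snhg8, 8 at Snhg12, 5 at Snhg3 and 4 at Snhg1. The 4 windows with both features were the Gas5 downstream start, Snhg1, Snhg8 and Snhg12. Snhg5 had TATA without the run, and at Snhg3 a TATA lay 22 bases after the annotated start. These are letters in a window and not shown sites of any factor, and the TATA position and the minimum run were set after the windows had been read. The 300-base windows of the members held a median of 62.0% G+C and 25 CpG, against 52.7% and 7 over all windows. GC skew, (G-C)/(G+C) on the transcribed sense strand, was 0.32 at the Gas5 upstream start, 0.14 at its downstream start, 0.08 at Snhg5, 0.07 at Snhg12, -0.04 at Snhg8, -0.12 at Snhg3 and -0.18 at Snhg1. The median over all windows was 0.01. The member without an interval, Snhg5, lay inside the range of the others for G+C (62.0%) and skew, while its 36 CpG were above their range of 16 to 33.

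An interval was called at 6 of the 7 members in HEPA1-6 and at the same 6 in the liver-labelled list, all but Snhg5. In the liver-labelled list only 4 bodies were touched. The intervals at Snhg3 and Snhg8 lay 539 and 122 bp past the gene and count through the flank. The background shares that follow count the flank too. The background in HEPA1-6 was 24.1% of all annotated genes and 42.0% of protein-coding genes. In the other list it was 16.7% and 29.7%. Of 3197 lncRNA genes whose bodies were as long as the members' (785 to 3939 bp), 13.7% and 8.98% held an interval. Protein-coding genes of these lengths reached 20.2% and 15.0%. The members' share, 85.7% in each list, was above each of these, as the plot of gene classes shows. The members were chosen with earlier results of these data known, so this excess is description only.

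**Figure D1:**
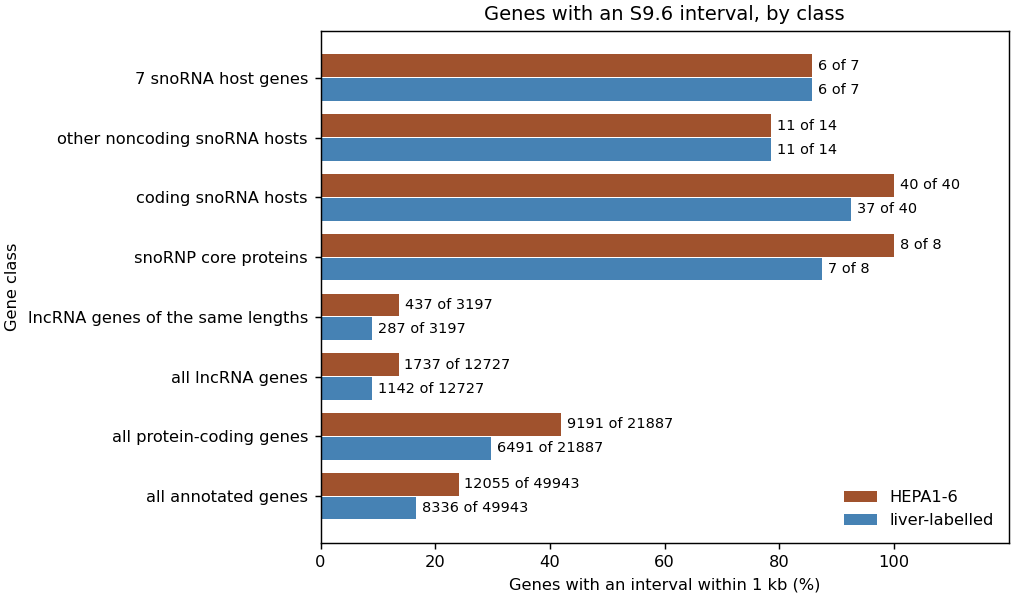
Share of genes with an S9.6 interval within 1 kb (x axis, percent) in each gene class (y axis), for the HEPA1-6 and the liver-labelled list; counts stand beside the bars. The 7 snoRNA host genes (6 of 7 in both lists) and the related lists lie above all lncRNA genes, at 13.6% and 8.97%. In the liver-labelled list the bodies of 4 of the 7 were touched.

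Across the members, 11180 of 15605 bases of gene body (71.6%) lay under a HEPA1-6 interval and 7436 (47.7%) under a liver-labelled one. The median member was covered over 70.6% (HEPA1-6) and 39.1% (liver-labelled) of its body, Snhg5 included at 0. Over the 6 members with an interval the medians were 85.3% and 44.5%. Genes of the members' lengths with an interval had medians of 69.4% and 47.4% if protein-coding, and 40.9% and 29.7% if lncRNA. In the liver-labelled list the members were thus not above such protein-coding genes. The whole body was covered at Gas5, Snhg1 and Snhg8 (HEPA1-6) and at Gas5 (liver-labelled). Of lncRNA genes of the same lengths that held an interval, 19.5% and 10.5% were covered whole. Of protein-coding genes of these lengths with an interval, 34.2% and 22.1% were, against 3 and 1 of the 6 members with one.

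**Figure D2:**
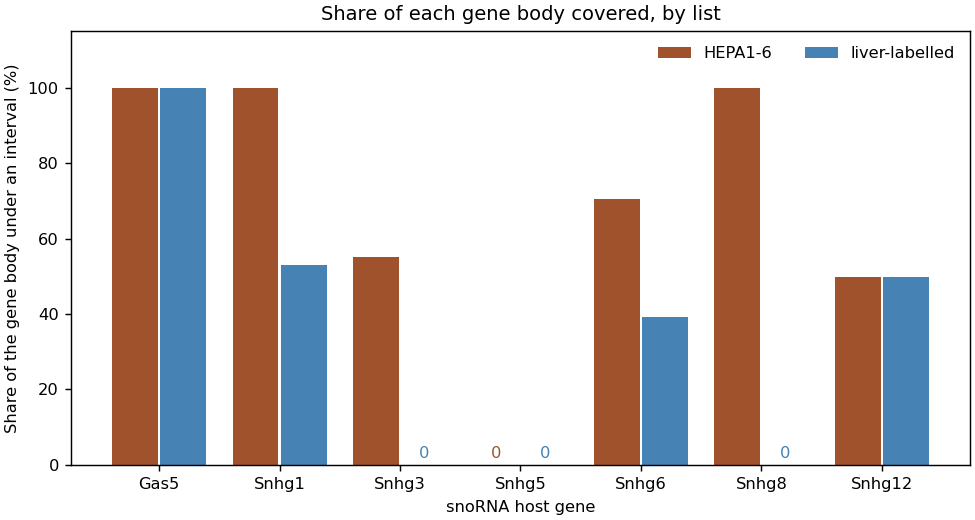
Share of each gene body under an interval (y axis, percent) for the 7 snoRNA host genes (x axis), with HEPA1-6 and liver-labelled bars side by side; a 0 marks a body that no interval touched. Gas5 and Snhg12 have equal bars, and Snhg3 and Snhg8 are covered in HEPA1-6 only.

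Each liver-labelled interval at a member lay wholly inside a HEPA1-6 interval, for 6 of 6 pairs, as did 86.0% of all 11455 overlapping pairs. The shared bases, within 1 kb of the bodies, were 10547 of 16162 in either list (Jaccard index 0.653). By member the index was 0.996 at Snhg12, 0.965 at Gas5, 0.554 at Snhg6, 0.536 at Snhg1, 0.207 at Snhg8 and 0.204 at Snhg3. The lists were therefore nearly the same at Snhg12 and Gas5, and at Snhg8 and Snhg3 they shared only a short stretch past the end of the gene.

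**Figure D3:**
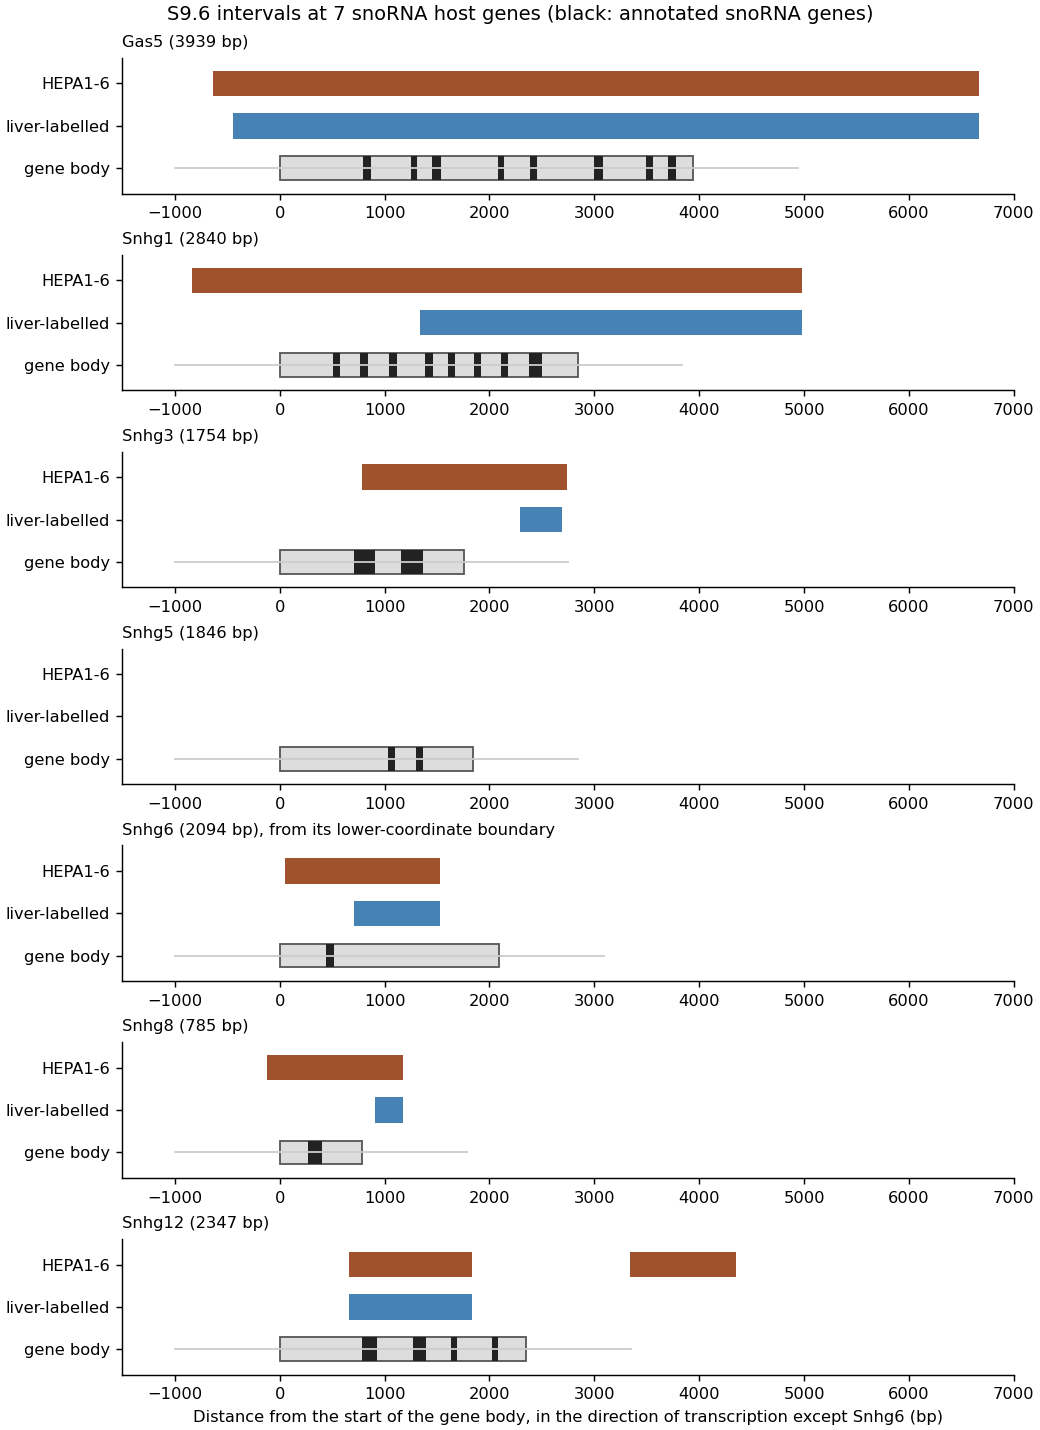
Intervals of the HEPA1-6 list (brown) and the liver-labelled list (blue) at the 7 snoRNA host genes; the x axis is the distance in bp from the start of the gene body in the direction of transcription, or from the lower-coordinate boundary for Snhg6. Grey boxes are gene bodies, the grey line adds 1 kb on both sides, and black boxes are annotated snoRNA genes; the liver-labelled interval lies inside the HEPA1-6 interval at each of the 6 genes that have one.

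Gas5 (chromosome 1, 161034601 to 161038539, plus strand, GRCm38) holds 8 annotated snoRNA genes, among them the C/D box gene Snord47. A HEPA1-6 interval of 7309 bp (161033962 to 161041270, score 158, rank 307 of 28717) ran from 639 bases before the start to 2731 bases past the end of the gene. The liver-labelled interval of 7113 bp (161034158 to 161041270, score 74, rank 545 of 14908) began 196 bases later and ended at the same base. Both covered the whole gene, both start sites and all 8 snoRNA genes. They also reached into Zbtb37, a zinc finger gene on the minus strand whose body overlaps the start of Gas5. The authors' strand was plus for HEPA1-6, as Gas5 is annotated, and minus for the liver-labelled interval, as Zbtb37 is. Neither interval can thus be given to Gas5 alone.

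Snhg1 (chromosome 19, 8723487 to 8726326, plus strand) also holds 8 snoRNA genes, including Snord22. In HEPA1-6 an interval of 5818 bp (8722649 to 8728466, score 164, rank 286) began 838 bases before the start and covered the gene and all 8 snoRNA genes. In the liver-labelled list an interval of 3647 bp (8724820 to 8728466, score 80, rank 464) began 1333 bases after the start. It covered 53.1% of the body and the last 5 snoRNA genes, and ended at the same base, 2140 bases past the end. The start of Snhg1 and its divergent neighbour Slc3a2, an amino acid transporter subunit gene whose annotated start lies 118 bp away, were thus under the HEPA1-6 interval only. Slc3a2 held a HEPA1-6 interval of its own elsewhere, and 2 liver-labelled intervals with a top score of 59.

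Snhg3 (chromosome 4, 132351933 to 132353686, minus strand) carries Snora73a and Snora73b, copies of the H/ACA box RNA known as U17, which acts in ribosomal RNA cleavage. The HEPA1-6 interval there had 1949 bp (132350950 to 132352898), a score of 35 and rank 5402. It covered 55.1% of the body, from 788 bases after the start onwards, with Snora73b whole and Snora73a in part. The liver-labelled list had a 398 bp interval (132350997 to 132351394, score 14, rank 13124) that began 539 bp past the end of the gene and touched neither snoRNA. It is assigned to Snhg3 through the flank alone. Snhg3 had the lowest percentile of the 6 members with an interval in both lists, 80.6 and 9.12.

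Snhg12 lies on the same chromosome (132308678 to 132311024, plus strand) and holds Snora16a, Snora44, Snora61 and Snord99. An identical interval of 1171 bp (132309341 to 132310511) was called in both lists, with a score of 121 (rank 495, HEPA1-6) and of 39 (rank 2210, liver-labelled). It covered 49.9% of the body and took in the 3 H/ACA box genes, while Snord99, the last one, lay outside. Neither the start nor the end of the gene was covered. A further HEPA1-6 interval (132312020 to 132313027, score 19) came 996 bp past the end, just inside the 1 kb limit, and lay over Trnau1ap, the gene of a selenocysteine tRNA-associated protein.

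Snhg6 (chromosome 1, 9942025 to 9944118) holds the C/D box gene Snord87 and lies mostly within the last part, by coordinate, of Mcmdc2, a gene of the minichromosome maintenance domain family. Its HEPA1-6 interval of 1479 bp (9942072 to 9943550) had the highest score of the members, 178 (rank 252), and covered 70.6% of the body and Snord87. Its liver-labelled interval of 819 bp (9942732 to 9943550) had the highest score there too, 108 (rank 269), and covered 39.1% of the body without Snord87. The 2 intervals ended at the same base and carried opposite strands, plus for HEPA1-6 and minus for liver-labelled. Both lie over Mcmdc2 as well.

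Snhg8 (chromosome 3, 123507552 to 123508336, minus strand), the shortest member at 785 bp, holds the H/ACA box gene Snora24. In HEPA1-6 an interval of 1302 bp (123507161 to 123508462, score 123, rank 484) covered the whole gene, from 126 bases before its start to 391 bases past its end. The liver-labelled interval (123507161 to 123507430, score 95, rank 344) was 270 bp wide and lay 122 bp past the end of the gene. It fell in the 950 bp gap between Snhg8 and Prss12, a serine protease gene that ends towards it on the opposite strand, so the high score there was not over Snhg8 itself. The outer boundary on that side, at 123507161, was the same in both lists.

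Snhg5 (chromosome 9, 88521052 to 88522897, minus strand) holds 2 snoRNA genes and had no interval in either list. The nearest one in each list lay 37823 bp away, at Syncrip, an RNA-binding protein gene, with scores of 127 (HEPA1-6) and 70 (liver-labelled). Weaker signal under the calling threshold leaves no entry in a list, so Snhg5 was without a called interval at this unknown depth. Outside the 1 kb limit, the next nearest interval to a member was a HEPA1-6 interval of 293 bp (161032313 to 161032605, score 30) 1996 bp before Gas5.

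The snoRNA genes themselves were counted next. Of 26 snoRNA genes inside the members, 22 (84.6%) lay wholly under a HEPA1-6 interval and 16 (61.5%) under a liver-labelled one. Gas5 and Snhg1 supplied 16 of these 22 and 13 of these 16, and snoRNA genes of 1 host share its intervals. Of 770 snoRNA genes inside other protein-coding or lncRNA genes, 19.7% and 12.7% lay under an interval. Of 544 outside such genes, 0.735% and 0.551% did. Of the 770, 206 lie inside Snhg14, whose body was covered over 0.0241% (HEPA1-6) and 0.134% (liver-labelled). This background is thus clustered by host too.

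Positions along the gene were read for the 5 members with an interval and a strand. In HEPA1-6 the first base of the gene was covered at 3 (Gas5, Snhg1, Snhg8) and the last base at 4 (these and Snhg3). In the liver-labelled list the first base was covered at Gas5 and the last at Gas5 and Snhg1. Among lncRNA genes of the same lengths with an interval, the first base was covered in 58.0% (HEPA1-6) and 49.3% (liver-labelled) and the last in 37.0% and 24.2%. Among such protein-coding genes the first base was covered in 60.9% and 58.9% and the last in 58.9% and 44.0%. No test of this difference was run over 5 genes. Intervals assigned to these members had the annotated strand in 6 of 6 cases (HEPA1-6) and in 4 of 5 (liver-labelled), the exception being Gas5. The 6 include the second Snhg12 interval, which lies off the body and over Trnau1ap, annotated on the minus strand. The 4 include the intervals at Snhg3 and Snhg8, which lie past the gene. For intervals over a single gene the share was 93.2% of 17858 and 90.4% of 7384, which is not a like set. How the authors assigned the strand is unknown, so it may not be independent of the gene annotation.

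Scores were high within each list at most members. The percentile of the highest-scoring interval was 98.9 at Gas5, 99.0 at Snhg1, 80.6 at Snhg3, 99.1 at Snhg6, 98.3 at Snhg8 and 98.3 at Snhg12 for HEPA1-6. The liver-labelled percentiles were 96.3, 96.8, 9.12, 98.2, 97.7 and 84.8, for the genes in this order. Not all of these scores belong to the member alone. The liver-labelled intervals at Snhg3 and Snhg8 lay past the gene. In both lists the intervals at Gas5 and Snhg6 lay over Zbtb37 and Mcmdc2 as well, and the HEPA1-6 interval at Snhg1 reached Slc3a2. The medians were 98.6 and 96.6, against 78.2 and 68.7 over all genes with an interval. They were 73.7 and 70.8 over lncRNA genes and 83.5 and 74.6 over protein-coding genes of the same lengths. Against intervals of similar width (within 1.5 times) the Gas5 percentile in the liver-labelled list was 86.1 and that of Snhg1 94.4. Snhg6 stood at 99.4 in both lists by this measure. The percentile was lower in the liver-labelled list at 6 of 6 members, and at 85.1% of the 7606 genes with an interval in both lists, so this direction is near the background.

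**Figure D4:**
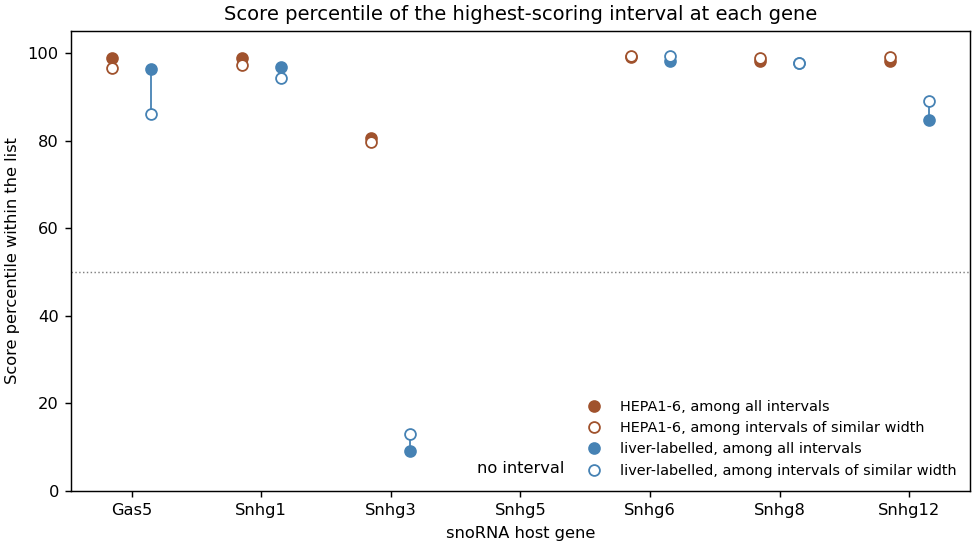
Score percentile within the list (y axis) of the highest-scoring interval at each snoRNA host gene (x axis), among all intervals of the list (filled) and among intervals of similar width (open); the dotted line is the middle of the list. In HEPA1-6 the filled points of 5 genes lie between 98.3 and 99.1, and Snhg3 is lowest in both lists, at 80.6 and 9.12.

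Interval boundaries recurred between the lists. At 5 of the 6 members with an interval pair, at least 1 boundary was the same to the base, and at Snhg12 both were; Snhg3 shared none. Over all 11455 overlapping pairs, 46.1% shared a boundary and 6.29% both. One of the 20 distinct boundaries of the members' intervals fell in a promoter window with known sequence, the upstream end of the HEPA1-6 interval at Snhg8. The whole Snhg8 window (chr3:123508287-123508586, minus strand) shows it, with capitals for TGTACA, the recognition site of the restriction enzyme BsrGI.
Snhg8 window: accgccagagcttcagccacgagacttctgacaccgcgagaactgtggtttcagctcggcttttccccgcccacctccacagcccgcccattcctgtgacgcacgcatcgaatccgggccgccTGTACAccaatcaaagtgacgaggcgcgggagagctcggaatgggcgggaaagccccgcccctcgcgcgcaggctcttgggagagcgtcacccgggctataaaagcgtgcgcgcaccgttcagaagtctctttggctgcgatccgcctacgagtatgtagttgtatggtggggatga

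The site spans 123508458 to 123508463, and the interval ends at 123508462, 4 bases after the first base of the site, where a filled-in BsrGI end would lie. BsrGI belongs, with HindIII (AAGCTT), EcoRI (GAATTC), XbaI (TCTAGA) and SspI (AATATT), to the enzyme mix commonly used to fragment DNA before S9.6 immunoprecipitation. All 5 sites read the same on both strands, and they were searched after the shared boundaries had been seen. Over both lists, 780 of 1618 boundaries in promoter windows (48.2%) lay exactly at the cut position of such a site, while 0.113% of all window positions begin one. The share was 57.0% of interval starts and 50.4% of interval ends for HEPA1-6, and 39.6% and 44.8% for the other list. A site was present in 27.4% of the promoter windows, and TGTACA in 4.75%. The other member boundaries have no sequence here, so whether they lie at such sites was not tested. How far the extent of the members' intervals follows fragment ends was likewise not tested.

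Neighbouring genes were set beside the members. Of the 14 nearest genes that do not overlap a member, 1 on each side, 10 held a HEPA1-6 interval and 5 a liver-labelled one, and 9 and 4 held an interval that was not also a member's. These included Rcc1, a chromatin-bound exchange factor gene next to Snhg3, with a top score of 21 in HEPA1-6, and Wdr74, a ribosome biogenesis gene next to Snhg1, with top scores of 35 and 40. No interval was held in either list by Rab42 next to Snhg12, Tcf24 next to Snhg6, or the pseudogenes Gm22985 and Gm9369. Most of the 14 are protein-coding genes. Over all protein-coding genes, 42.0% held a HEPA1-6 interval and 29.7% a liver-labelled one.

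Other snoRNA hosts gave the context, in lists that were also chosen with earlier results of these data known. Of 14 other noncoding hosts found in the annotation, 11 held an interval in each list, the exceptions in both being Snhg11, Rian and Snhg18. Their highest percentiles in HEPA1-6 were those of Epb41l4aos (99.6), Snhg17 (99.2) and Snhg20 (99.0), and their lowest those of Snhg4 (87.2), Snhg14 (57.8) and Snhg10 (38.8). In the liver-labelled list Zfas1 (99.3), Epb41l4aos (98.8) and Snhg16 (98.5) led, and Snhg14 (34.2), Snhg4 (15.4) and Snhg10 (9.12) came last. The median percentile of those with an interval was 98.0 and 95.9, near the members' 98.6 and 96.6. Of the 11, 7 bodies were covered whole for HEPA1-6 and 2 for the liver-labelled list. The annotation used here places no snoRNA gene inside Snhg20 or Snhg10. Snhg14 was covered over only 0.0241% (HEPA1-6) and 0.134% (liver-labelled) of its body.

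Of 40 protein-coding hosts, mostly ribosomal protein and translation factor genes, 40 held a HEPA1-6 interval and 37 a liver-labelled one, the exceptions being Ipo7, Taf1d and Rpl10. Over all 40 the median share of the body covered was 96.8% (HEPA1-6) and 69.6% (liver-labelled). Median percentiles of those with an interval were 98.4 and 94.0. Eif4a2, a translation initiation helicase gene, led in both lists, at 99.9 and 99.5. At the other end stood Tcp1 (83.5), Dkc1 (78.2) and Taf1d (75.4) in HEPA1-6, and Rpl5 (51.7), Tcp1 (22.2) and Dkc1 (9.12) in the liver-labelled list. Among the 8 genes of the core proteins of snoRNA particles, 8 and 7 held an interval, Nop10 lacking one in the liver-labelled list. Their median percentiles were 96.2 and 82.8. Nop56 (99.2) and Gar1 (98.8) were highest in HEPA1-6, and Dkc1 (78.2) and Nop10 (65.5) lowest. In the liver-labelled list Gar1 (95.7) and Nop56 (94.0) led, and Nhp2 (66.6), Snu13 (66.6) and Dkc1 (9.12) came last. Nop56 and Dkc1 are also among the 40 protein-coding hosts, and the liver-labelled interval at Dkc1 touched no base of its body. By annotation alone, 28.7% and 24.8% of 101 other lncRNA genes with a snoRNA inside held an interval, and 65.6% and 50.5% of 372 such protein-coding genes. These genes are long (medians 25448 and 59761 bp), and the annotation alone does not show that their snoRNAs are processed from them.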

How the data were processed

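R-loops were mapped by S9.6 immunoprecipitation in HEPA1-6 cells and mouse liver. The authors deposited 1 list of intervals per source with a score per interval. The files have no header and were read as 6-column BED. Per the deposited interval names, a merged immunoprecipitate was set against input. The submitters' processing notes name CASAVA 1.8.2, cutadapt, Bowtie2, bedtools, SAMtools, MACS2 and mm10. Roles, thresholds, the scale of the score and the origin of the strand are not given in the sources used here. Depth is unknown. Wilson intervals (95%) served only to say whether a share or percentile moved under an alternative.

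Intervals (1-based) were intersected with RefSeq gene bodies (GRCm38.p6) with 1 kb on both sides, by at least 1 bp, using Python 3.11.15, numpy 2.4.6 and pandas 2.3.3. Percentiles are mid-ranks within a list. Interval counts and coverage were checked on simulated data. Backgrounds are the same counts over all genes of a class. No test was run, since there is 1 list per source. The members, gene lists and alternatives were chosen with earlier results of these data known. Named genes were the members, their nearest gene on each side, genes under their intervals (not all of which are reported here), and of each related list those without an interval where 5 or fewer, and the 3 highest and 3 lowest by percentile. Of these, the text gives the ones that bear on the members. Snhg32 was not found under that name.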

Additional observations from a re-analysis of the deposited data

How the results depend on the processing

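Of 26 alternatives for 7 results, 19 stayed within 1.5 times a count or within the counting interval of a share, and 7 moved. A fall from 6 members to 4 counts as staying under this wide limit. Counting intervals here run over bases or intervals of a list and are narrow. The number of members with an interval in HEPA1-6 was 6 under all 5 alternatives. In the liver-labelled list it was 4 without the flank, since the intervals at Snhg3 and Snhg8 lie past the gene, and 5 in the higher-scoring 50% of the list. With 1 kb added to both sides of the body, the share covered was 54.6% (HEPA1-6) and 35.6% (liver-labelled). With intervals on the annotated strand only, over the 6 members with a strand, the liver-labelled share was 19.8%, because this leaves out the Gas5 interval and Snhg6. Among intervals over a gene the median percentile was 98.8 and 97.0, and among intervals of similar width 98.1 and 91.8. An overlap of 50% of both intervals held at 4 members instead of 6. Equal numbers of intervals leave the liver-labelled list as it is by construction. No paired analysis was possible because the data used are 1 merged list per source, and for the same reason no replicate could be left out. The unknown depth limits each statement that an interval is missing.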

Other observations

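Outside the snoRNA hosts, the 5 lncRNA genes whose pattern was nearest to the members' medians (share of body covered and top percentile in each list, 4 values) were 4930445K14Rik, Gm20045, Kcnq1ot1, Pldi and 5430405H02Rik. None of the 5 holds an annotated snoRNA gene. 4930445K14Rik on chromosome 2 came nearest, with 78.6% (HEPA1-6) and 38.8% (liver-labelled) of its body covered and percentiles of 98.4 and 95.3. Kcnq1ot1, an imprinted antisense RNA of 83437 bp on chromosome 7, was covered over 61.1% and 32.3%, with percentiles of 97.6 and 97.7. These genes were picked for likeness over 4 values and share no tested property.

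Opposite strands in the 2 lists were seen in 2 of the 6 interval pairs at the members, Gas5 and Snhg6, and in 14.0% of all 10990 pairs that carry a strand on both sides. At both genes a protein-coding gene overlaps the host. The cause was not tested.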
